A study of Mus musculus with 12 samples.

Results

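The 41 genes described here encode the contractile and cytoskeletal machinery of smooth muscle. They were taken as a list of gene symbols, and all 41 were found among the 19938 genes measured by a probe set with 1 gene symbol. The arrays were Affymetrix mouse arrays, hybridised with total RNA from untreated vessels of wild-type C57BL/6 mice aged 8 weeks, 3 arrays for each of the ascending aorta, the coronary artery, the descending aorta and the superior mesenteric artery. The submitters looked for expression profiles tied to the embryonic source of a vessel. Replicates are labelled as biological, but whether an array holds RNA of 1 mouse or of several is not stated. The p-values therefore measure the spread among these arrays, which may be technical in part. Levels below are deposited log2 values, and a difference is the first vessel named minus the second, ± SE from limma.

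Smooth muscle cells shorten when myosin II, whose heavy chain is Myh11 and whose regulatory light chain is Myl9, slides along filaments of smooth muscle actin. Myosin light chain kinase switches this motor on and myosin phosphatase switches it off, while calponins, caldesmon, tropomyosins and transgelin sit on the thin filament, and vinculin, talin and the LIM proteins tie the filaments to the membrane. Serum response factor (Srf), with its coactivator myocardin (Myocd), binds CArG boxes near many of these genes and is known to drive their transcription in vascular muscle.

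The vessels were not pure muscle, and the arrays of 2 vessels differed widely. In coronary artery, a list of 15 cardiomyocyte genes averaged between 10.1 and 10.3 on each array, against 3.96 to 5.7 on the other 9. In ascending aorta replicate 1, the B cell list averaged 7.99 and the T cell list 7.58, against at most 3.98 and 4.84 in replicates 2 and 3, and the fibroblast list averaged 5.88, against 8.54 and 8.45. In superior mesenteric artery, replicates 2 and 3 had B cell list means of 6.66 and 6.42, against 4.74 in replicate 1, and replicate 3 had a pancreatic acinar list mean of 9.63. Fat markers differed between the vessels too. The brown adipocyte list averaged 7.15 ± 0.46, 5.98 ± 0.145, 7.74 ± 0.399 and 4.37 ± 0.514, and the adipocyte list 7.93 ± 0.998, 6.23 ± 0.185, 8.83 ± 0.357 and 6.81 ± 0.266, in the ascending aorta, the coronary artery, the descending aorta and the superior mesenteric artery (SD, n = 3 each). Of 9 adipocyte genes, 6 passed as higher in ascending aorta against coronary artery, 7 as lower in coronary artery against descending aorta and 5 as higher in descending aorta against superior mesenteric artery by limma. Of 8 brown adipocyte genes, 2 passed as higher in coronary artery against superior mesenteric artery by limma and 6 did not pass. The 2 were Cox8b, with means of 12.27 against 7.96, and Cox7a1, with 11.24 against 5.57. Ucp1, at 4.77 against 4.58, and Cidea, at 4.34 against 3.14, were among the 6. Which tissue the Cox8b and Cox7a1 transcripts came from was not tested. The part of fat tissue in the members' values was not tested. The mean of the 41 genes was 6.08, 7.59 and 7.73 in ascending aorta, 6.6, 6.58 and 6.43 in coronary artery, 6.82, 6.96 and 6.87 in descending aorta, and 8.64, 6.41 and 6.83 in superior mesenteric artery.

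In ascending aorta and superior mesenteric artery, most of the 41 genes moved together from array to array. Ascending aorta replicate 1 was the lowest array of its vessel for 36 of the 41, and superior mesenteric artery replicate 1 was the highest of its vessel for 40 of the 41, where 39.4% and 38.1% of all genes did so. Coronary artery and descending aorta had no such array: none was the lowest of its vessel for more than 22 members or the highest for more than 17. Correlated with the mean of the other members over the 12 deviations from vessel means, 27 genes had a coefficient of 0.9 or more, 10 lay between 0.7 and 0.9, and 4 lay lower. Those 4 were Cnn2 at -0.47, Ppp1r12b at -0.09, Tln1 at 0.40 and Des at 0.58. Of all genes, 1.32% reached 0.9 with the mean of the members. Over the 6 arrays of coronary artery and descending aorta alone, 2 of the 41 genes (4.88%) reached 0.9, against 1.89% of all genes, and the members' median was 0.25, against 0.96 over the 12. The points of each coefficient come from the same arrays, and the coefficients are a description. The pooled SD between arrays of a vessel had a median of 0.833 over the 41 genes, and was lowest for Tln1 at 0.196 and highest for Myh11 at 1.26. The genes were measured in whole vessel tissue, where fewer smooth muscle cells and less of each transcript per cell cannot be told apart.

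**Figure D1:**
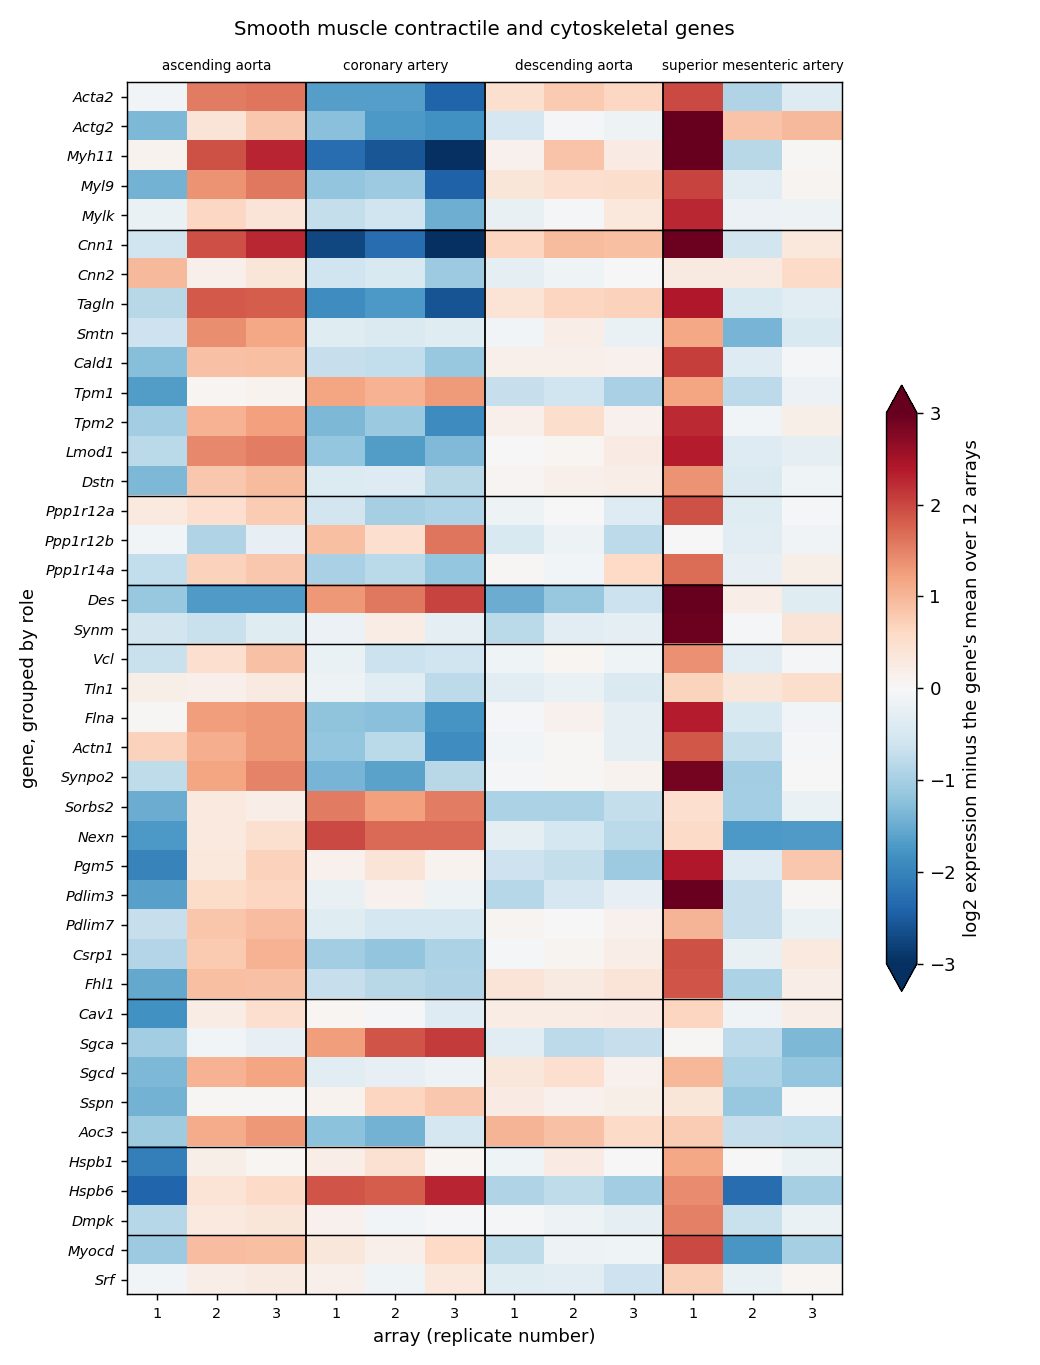
Level of each of the 41 genes on each of the 12 arrays, as the log2 value minus that gene's mean over the 12 arrays, with colours clipped at 3 in both directions. Ascending aorta replicate 1 is the lowest array of its vessel for 36 genes and superior mesenteric artery replicate 1 the highest of its vessel for 40, while in coronary artery genes such as Cnn1 are low and Sgca and Nexn high.

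**Figure D2:**
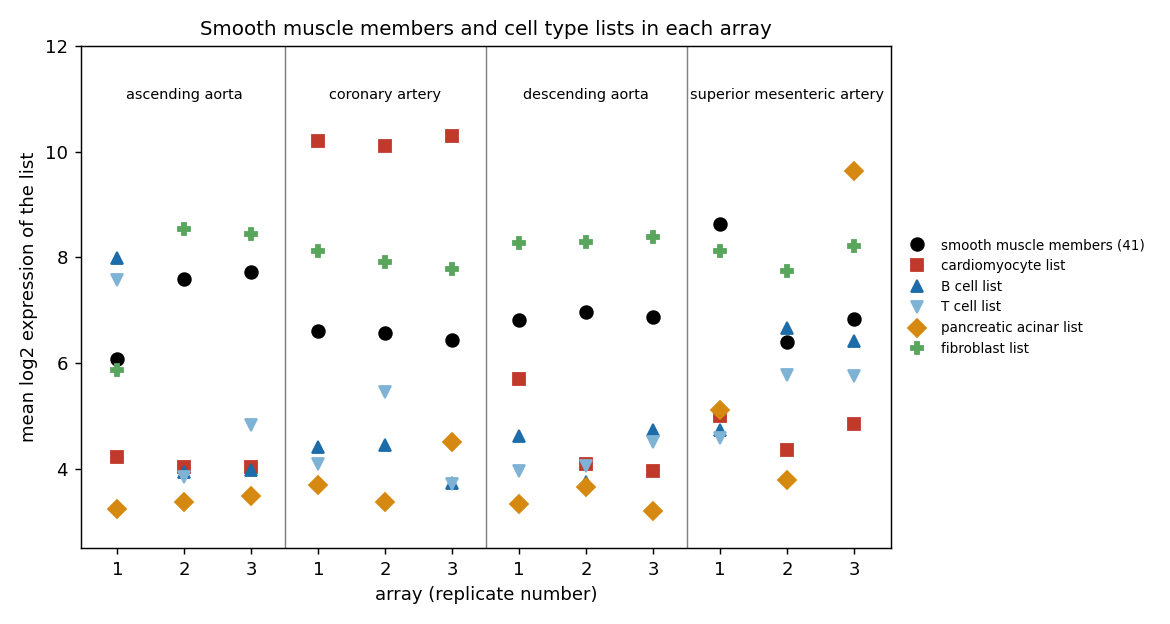
Mean log2 level of the 41 genes and of marker lists of other cell types on each of the 12 arrays. Cardiomyocyte markers stand at 10.1 to 10.3 in coronary artery, and B cell markers at 7.99 in ascending aorta replicate 1.

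Promoters were searched because many members moved together in ascending aorta and superior mesenteric artery and because Srf binds a known sequence. The search covered RefSeq promoters of 300 bases, from 250 before to 50 after the start (GRCm38.p6), for the CArG box, which is CC, then 6 bases that are A or T, then GG, and for a CArG-like form with 1 of the 6 bases neither A nor T. The pattern reads the same on both strands. Of the 41 genes, 35 had a window, and Aoc3, Tagln, Myocd, Myh11, Actg2 and Nexn had none. An exact box lay in 5 of the 35 (14.3%), in Myl9, Cnn2, Vcl, Fhl1 and Srf, with 2 in Srf, against 1.81% of 27025 genes with a window. An exact or CArG-like form lay in 11 (31.4%), against 11.3% of all genes; besides those 5 they were Dstn, Sspn, Hspb6, Synm, Pdlim3 and Acta2. A match is a description of the letters, not a measured site. The coefficients with the other members over deviations from vessel means were 0.92 for Myl9, -0.47 for Cnn2, 0.98 for Vcl, 0.97 for Fhl1 and 0.81 for Srf. Cnn1, Lmod1, Csrp1 and Tpm2, at 0.96 to 0.98, had a window with neither form. Whether the boxes go with the shared movement was not tested. The sequences printed are those of a smooth muscle actin, its myosin light chain, an adhesion gene, Srf itself and a calponin, 5' to 3' on the gene's own strand, with boxes in capitals. The stretches are chr19:34255374-34255497 on the minus strand for Acta2 (positions -124 to -1 from the start, 2 CArG-like forms), chr2:156775263-156775414 on the plus strand for Myl9 (-201 to -50, 1 exact and 1 CArG-like), chr14:20929148-20929220 on the plus strand for Vcl (-250 to -178, exact), chr17:46556175-46556284 on the minus strand for Srf (-122 to -13, 2 exact) and chr10:79988504-79988593 on the plus strand for Cnn2 (-96 to -7, exact).
Acta2: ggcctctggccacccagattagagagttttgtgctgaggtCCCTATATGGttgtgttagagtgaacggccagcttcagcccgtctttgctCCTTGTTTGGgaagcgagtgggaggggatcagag
Myl9: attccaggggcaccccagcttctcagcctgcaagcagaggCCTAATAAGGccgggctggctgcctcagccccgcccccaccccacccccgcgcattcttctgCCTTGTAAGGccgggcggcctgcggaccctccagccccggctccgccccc
Vcl: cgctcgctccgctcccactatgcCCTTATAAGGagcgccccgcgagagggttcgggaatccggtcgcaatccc
Srf: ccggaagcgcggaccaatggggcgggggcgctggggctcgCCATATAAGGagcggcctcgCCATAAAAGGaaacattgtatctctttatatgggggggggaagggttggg
Cnn2: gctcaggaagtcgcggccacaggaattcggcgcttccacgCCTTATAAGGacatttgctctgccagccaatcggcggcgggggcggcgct

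Over the 4 vessels, 8 of the 41 genes (19.5%) passed limma's F test at an adjusted p under 0.05, where 4.72% of all genes did. They were Myh11 (adjusted p = 0.0398), Cnn1 (0.0256), Cnn2 (0.0271), Ppp1r12b (0.0244), Des (0.0248), Tln1 (0.0256), Sorbs2 (0.0304) and Sgca (0.00275), by limma. Acta2 and Actg2 lay at limma adjusted p of 0.0506 and 0.0507. The count was 22 without ascending aorta replicate 1, 16 without superior mesenteric artery replicate 1 and 11 without its replicate 2. Of all genes, 1825, 936 and 813 passed in those fits, against 942 with every array. The count of members was 4 without superior mesenteric artery replicate 3 (640 of all genes). It was 2 with coronary artery replicate 1, 2 or 3 left out (637, 608 and 602 of all genes). Of the descending aorta arrays, leaving out replicate 1 gave 1 (624 of all genes), and leaving out replicate 2 or 3 gave 2 (551 and 664).

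Ascending aorta was compared with coronary artery. In that comparison 5 of the 41 genes were higher and 3 lower, where 0.602% of all genes were called higher and 1.87% lower. The 5 were Acta2, Myh11, Cnn1, Cnn2 and Actn1, and the 3 were Ppp1r12b, Des and Sgca. The median difference of the 41 genes was 0.82, against 0 for all genes. All arrays of ascending aorta lay above all of coronary artery for 15 members and below for 9, where 8.3% and 11% of all genes did so. With lymphocyte list means as a covariate, 23 were higher and 6 lower (408 and 443 of all genes, against 120 and 373 without it). Without ascending aorta replicate 1 the counts were 13 and 3 (all genes 404 and 364). Without superior mesenteric artery replicate 1 they were 10 and 6 (all genes 148 and 419). Without ascending aorta replicate 2 they were 1 and 1 (67 and 288), and without its replicate 3 they were 1 and 2 (76 and 366). Leaving out coronary artery replicate 1 gave 1 and 1 (55 and 271). Its replicate 2 gave 1 and 2 (40 and 240), and its replicate 3 gave 0 and 1 (35 and 216). Without descending aorta replicate 1, 2 or 3 they were 3 and 3 (77 and 300, 85 and 314, 84 and 322).

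Coronary artery was compared with descending aorta and with superior mesenteric artery. Against descending aorta, 4 members were higher in coronary artery (Ppp1r12b, Des, Sorbs2 and Sgca) and 1 was lower (Cnn1), where 1.53% of all genes were called higher and 1.61% lower. Against superior mesenteric artery, 2 were higher in coronary artery (Nexn and Sgca) and 5 lower (Actg2, Myh11, Cnn1, Cnn2 and Tln1), where 2.71% of all genes were called higher and 0.527% lower. The median differences of the 41 genes were -0.57 and -0.85. Sgca was higher and Cnn1 lower in coronary artery in all 3 comparisons of that vessel, which share its arrays, as were 212 and 9 of all genes. Coronary artery lay below descending aorta without overlap for 25 members and above it for 11, where 12.5% and 9.88% of all genes did so. Against superior mesenteric artery, coronary artery lay below without overlap for 17 members and above for 5, where 11.1% and 11.3% of all genes did so.

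The coronary artery calls depended on single arrays, among all genes as well as among members. Counts of all genes are in brackets. Against descending aorta, the 4 higher and 1 lower (306 and 321) became 7 and 6 (455 and 601) without ascending aorta replicate 1. They became 7 and 5 (339 and 321) without superior mesenteric artery replicate 1 and 5 and 3 (303 and 279) without its replicate 2. Leaving out coronary artery replicate 1, 2 or 3 gave 2 and 0 (224 and 178), 3 and 0 (228 and 157), and 1 and 0 (220 and 194). Leaving out descending aorta replicate 1, 2 or 3 gave 1 and 0 (206 and 179), 2 and 0 (192 and 132), and 2 and 0 (242 and 215). Against superior mesenteric artery, the 2 higher and 5 lower (540 and 105) became 5 and 13 (835 and 457) without ascending aorta replicate 1. Leaving out superior mesenteric artery replicate 1, 2 or 3 gave 5 and 3 (455 and 151), 1 and 7 (408 and 84), and 1 and 1 (336 and 28). Leaving out coronary artery replicate 1, 2 or 3 gave 1 and 2 (379 and 59), 2 and 2 (378 and 34), and 1 and 0 (295 and 19). Without descending aorta replicate 2 the counts were 1 and 4 (472 and 72).

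Comparisons without coronary artery gave few calls. Between ascending and descending aorta limma called 0 members, with 4 of 41 at an unadjusted p under 0.05, as were 1922 of 19938 genes, where 0% and 0.015% of all genes were called higher and lower. Ascending aorta lay above descending aorta without overlap for 5 members and below for 1, where 6.09% and 9.62% of all genes did so. Between ascending aorta and superior mesenteric artery it called 0 members, with 3 of 41 at an unadjusted p under 0.05, as were 1439 of 19938 genes, where 0.135% and 0.0401% of all genes were called. Ascending aorta lay below superior mesenteric artery without overlap for 4 members and above for 0, where 4.62% and 4.73% of all genes did so. Between descending aorta and superior mesenteric artery it called 1, Tln1, lower in descending aorta, where 0.361% of all genes were called lower and 2.84% higher. Descending aorta lay below superior mesenteric artery without overlap for 7 members and above for 0, where 10.4% and 12.5% of all genes did so. Without ascending aorta replicate 1, limma called 3 members lower in descending aorta than in superior mesenteric artery (391 of all genes, against 72 with every array). It called 0 without descending aorta replicate 1, 2 or 3 (27, 16 and 37 of all genes). It also called 0 without superior mesenteric artery replicate 1 or 3 (108 and 22 of all genes). The mean of the 41 genes had an SD of 1.19 in superior mesenteric artery and 0.912 in ascending aorta. Differences smaller than such a spread may have gone undetected. Tln1, the member called, had an SD of 0.16 in superior mesenteric artery.

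**Figure D3:**
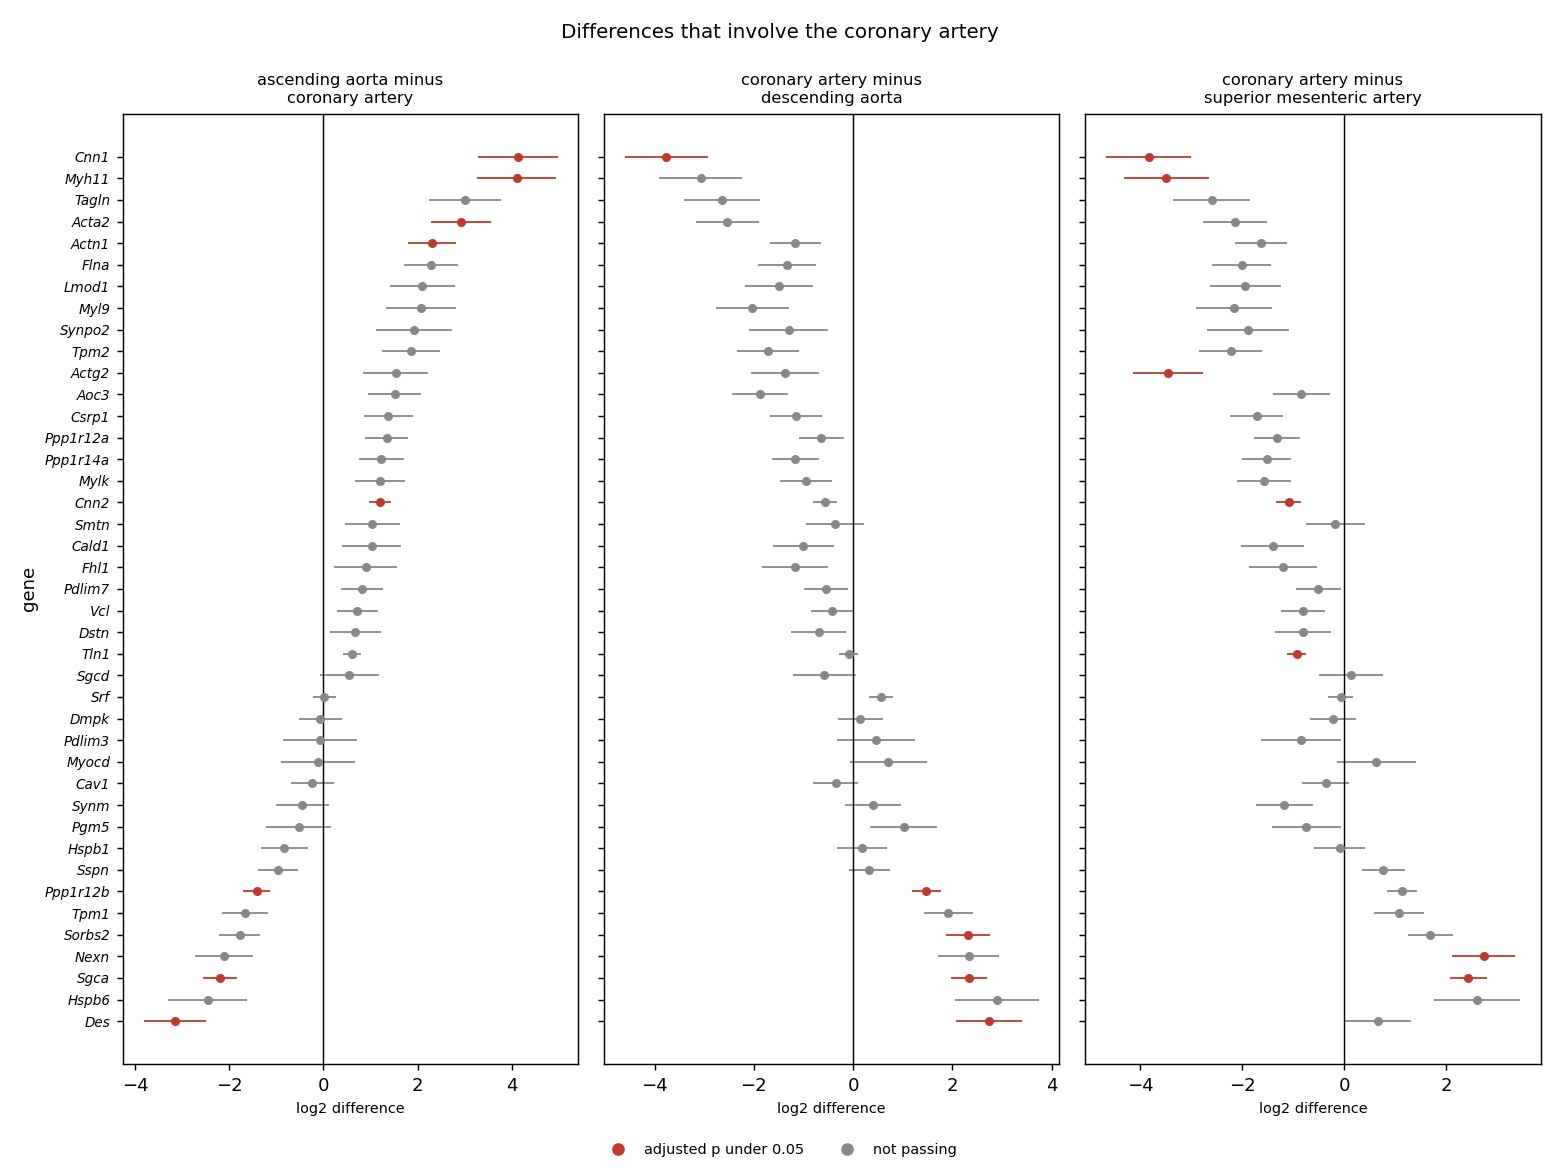
Differences in log2 units ± SE of the 41 genes in the 3 comparisons that include coronary artery, with genes at a limma adjusted p under 0.05 in red. Sgca is red in all 3 panels, and contractile genes such as Cnn1 and Myh11 are among the largest differences.

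Among the motor genes, 2 of 5 were higher in ascending aorta than in coronary artery and 2 of 5 were lower in coronary artery than in superior mesenteric artery. Acta2, the actin of vascular smooth muscle, had 9.52, 11.17 and 11.23 in ascending aorta, 7.97, 7.96 and 7.22 in coronary artery, 10.09, 10.41 and 10.24 in descending aorta, and 11.6, 8.72 and 9.23 in superior mesenteric artery. Coronary artery was below all other arrays, and the other vessels overlapped. Acta2 was higher in ascending aorta than in coronary artery by 2.92 ± 0.63, or 7.59-fold (limma adjusted p = 0.0292). Myh11 had 7.7, 9.5 and 9.86 in ascending aorta, 5.29, 5.02 and 4.45 in coronary artery, 7.71, 8.43 and 7.83 in descending aorta, and 10.87, 6.75 and 7.61 in superior mesenteric artery. Its coronary arrays lay below all 9 others. It was higher in ascending aorta than in coronary artery by 4.10 ± 0.84 (17.1-fold, limma adjusted p = 0.0226) and lower in coronary artery than in superior mesenteric artery (a difference of -3.49 ± 0.84, 11.3-fold, limma adjusted p = 0.0426). Among the 21 alternative fits described below, the first call was lost in 5 and the second in 10.

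Actg2, the gamma-actin of visceral smooth muscle, had 5.63, 7.38 and 7.8 in ascending aorta, 5.74, 5.27 and 5.17 in coronary artery, 6.49, 6.96 and 6.84 in descending aorta, and 10.77, 7.84 and 7.96 in superior mesenteric artery. All 3 superior mesenteric artery arrays were above the other 9, the closest pair being 7.84 against 7.8. Coronary artery was lower than superior mesenteric artery by a difference of -3.46 ± 0.69 (11-fold, limma adjusted p = 0.0149). Myl9, the regulatory light chain, averaged 10.36 ± 1.7 in ascending aorta, 8.29 ± 0.74 in coronary artery, 10.32 ± 0.091 in descending aorta and 10.45 ± 1.3 in superior mesenteric artery (SD, n = 3 each), and was not called (limma adjusted p = 0.201 for the first pair). Mylk, the kinase that phosphorylates it, averaged 6.03, 4.82, 5.77 and 6.4 in the vessels in that order and was not called.

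**Figure D4:**
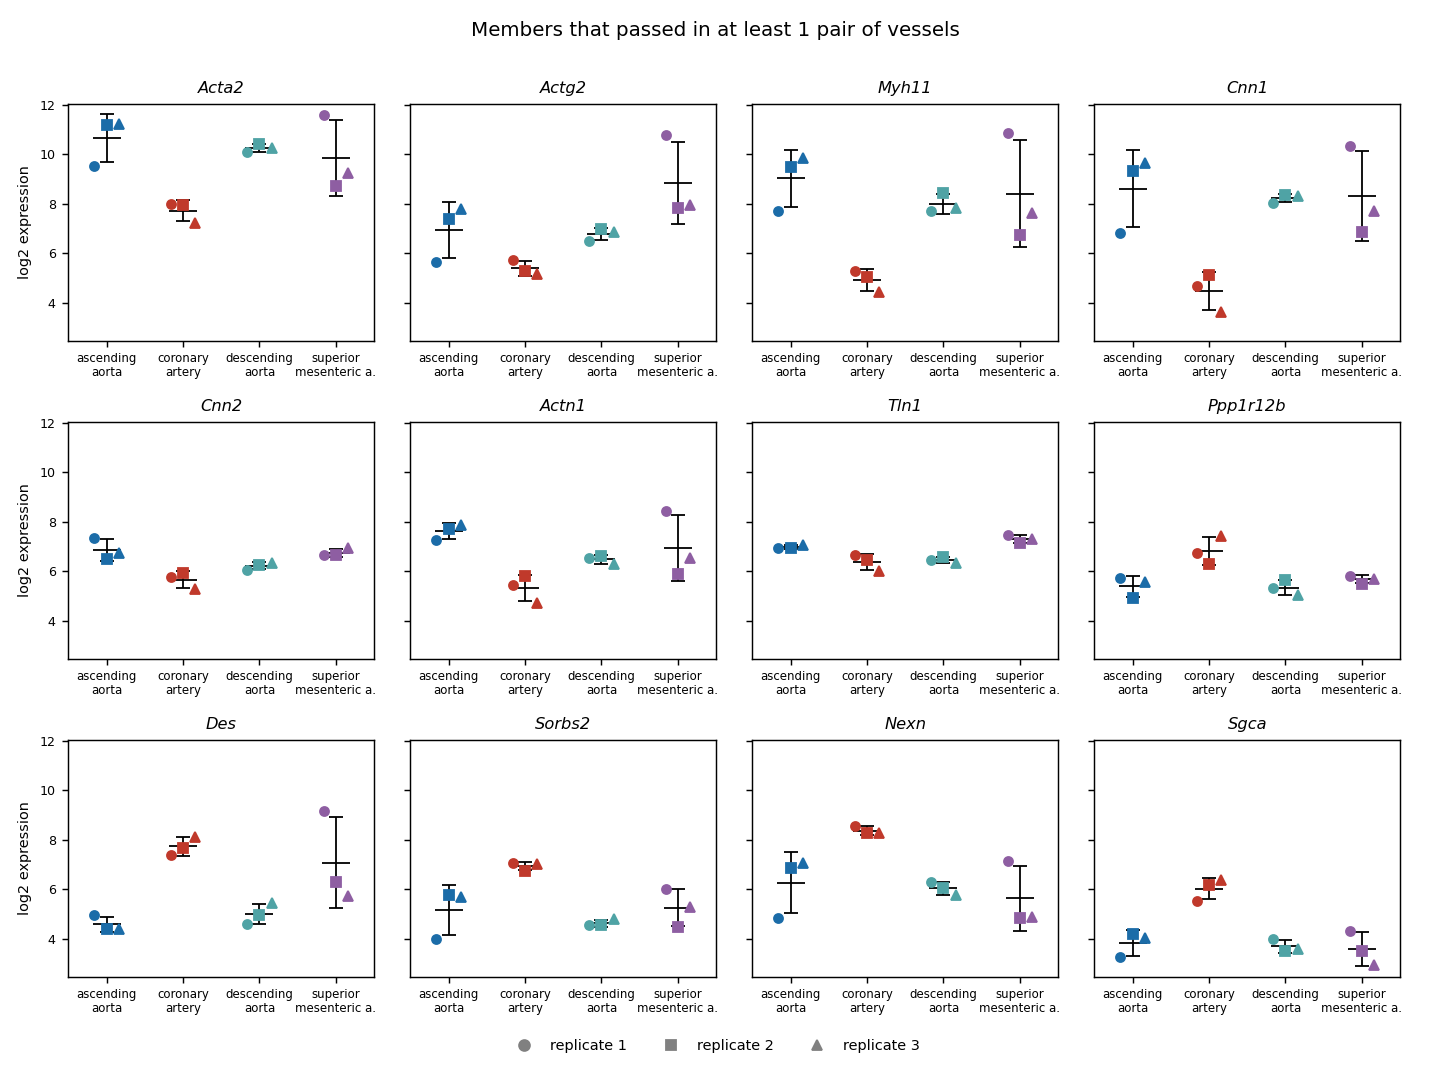
Log2 levels of the 12 genes that passed in some comparison, by vessel, with each point an array and bars the mean ± SD. For Acta2, Myh11, Cnn1, Cnn2 and Actn1 the coronary artery points lie under all others, and for Ppp1r12b, Sorbs2, Nexn and Sgca they lie above all others.

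Among the thin filament genes, calponins carried the calls. Calponin 1, Cnn1, an actin-binding inhibitor of the myosin ATPase, had 6.81, 9.33 and 9.66 in ascending aorta, 4.67, 5.12 and 3.61 in coronary artery, 8.04, 8.34 and 8.3 in descending aorta, and 10.34, 6.85 and 7.72 in superior mesenteric artery. Coronary artery lay below all 9 others. Cnn1 was higher in ascending aorta than in coronary artery by 4.13 ± 0.84 (17.6-fold, limma adjusted p = 0.0208), and coronary artery differed from descending aorta by -3.76 ± 0.84 (13.6-fold, limma adjusted p = 0.0291) and from superior mesenteric artery by -3.84 ± 0.84 (14.3-fold, limma adjusted p = 0.0255). Cnn2, a calponin also found in non-muscle cells, had 7.34, 6.51 and 6.72 in ascending aorta, 5.78, 5.91 and 5.27 in coronary artery, 6.07, 6.24 and 6.35 in descending aorta, and 6.64, 6.64 and 6.94 in superior mesenteric artery. It was highest in ascending aorta replicate 1, the array with the lowest mean of the 41 genes. It was higher in ascending aorta than in coronary artery by 1.20 ± 0.24 (2.3-fold, limma adjusted p = 0.0179), and coronary artery differed from superior mesenteric artery by -1.09 ± 0.24 (2.13-fold, limma adjusted p = 0.0258).

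The other 7 thin filament genes were not called in any comparison. Tagln, the actin-binding transgelin, averaged 8.59 ± 1.5 in ascending aorta, 5.59 ± 0.46 in coronary artery, 8.23 ± 0.15 in descending aorta and 8.19 ± 1.6 in superior mesenteric artery (SD, n = 3 each), with a limma adjusted p of 0.0631 for ascending aorta against coronary artery. Smtn, smoothelin, Cald1, caldesmon, Tpm2, a tropomyosin, Lmod1, leiomodin, and Dstn, destrin, had coronary artery means below those of every other vessel, but no pair passed. Tpm1, the other tropomyosin, ran the other way: its coronary artery arrays, at 9.88, 9.75 and 9.99, were above those of ascending and descending aorta without overlap, and the limma adjusted p was 0.06 against descending aorta.

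Myosin phosphatase is built on targeting subunits. Ppp1r12b, the subunit known from heart muscle, had 5.72, 4.91 and 5.56 in ascending aorta, 6.72, 6.31 and 7.42 in coronary artery, 5.34, 5.65 and 5.03 in descending aorta, and 5.82, 5.5 and 5.7 in superior mesenteric artery. Coronary artery was above the other 9, and ascending aorta differed from coronary artery by -1.42 ± 0.29 (2.68-fold, limma adjusted p = 0.0225), while coronary artery was higher than descending aorta by 1.48 ± 0.29 (2.78-fold, limma adjusted p = 0.0139). The gene has 7 probe sets, whose differences between ascending aorta and coronary artery ran from -1.42 to 0.44, and with their mean both calls were lost. Ppp1r12a, the subunit of smooth muscle, and Ppp1r14a, the phosphatase inhibitor CPI-17, were not called. Ppp1r12a stood at 7.9 ± 0.24 in the ascending aorta and 6.56 ± 0.24 in coronary artery (SD, n = 3 each), with a limma adjusted p of 0.169.

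Of the intermediate filament genes, desmin was called and synemin was not. Des, the main intermediate filament protein of muscle, had 4.95, 4.4 and 4.39 in ascending aorta, 7.4, 7.67 and 8.13 in coronary artery, 4.6, 4.96 and 5.44 in descending aorta, and 9.17, 6.3 and 5.74 in superior mesenteric artery. Both aortic segments lay below both other vessels without overlap. Ascending aorta differed from coronary artery by -3.16 ± 0.66 (8.92-fold, limma adjusted p = 0.0242), and coronary artery was higher than descending aorta by 2.74 ± 0.66 (6.66-fold, limma adjusted p = 0.0435). The call against descending aorta was lost in 11 of 21 alternatives. They included a renewed quantile normalization, the replicate block, and the fit without 3 of the arrays that carried other tissue. The rest left out ascending aorta replicate 2 or 3 or any 1 array of coronary artery or descending aorta. The difference between coronary artery and descending aorta stayed between 2.53 and 2.96 in the 21. The call against ascending aorta was lost in 5 of 21, those that left out a coronary artery array or replicate 2 or 3 of ascending aorta. Synm, synemin, a partner of desmin, had 3.99, 3.87 and 4.18 in ascending aorta and 7.48, 4.5 and 4.93 in superior mesenteric artery and was not called (limma adjusted p = 0.439).

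Among the 12 adhesion and scaffold genes, 4 were called somewhere. Talin 1, Tln1, which links integrins to actin, had 6.95, 6.94 and 7.06 in ascending aorta, 6.64, 6.47 and 6.01 in coronary artery, 6.47, 6.59 and 6.35 in descending aorta, and 7.46, 7.15 and 7.32 in superior mesenteric artery. Superior mesenteric artery was above the other 9 arrays, and coronary artery and descending aorta overlapped. Coronary artery differed from superior mesenteric artery by -0.93 ± 0.19 (1.91-fold, limma adjusted p = 0.0157) and descending aorta from superior mesenteric artery by -0.84 ± 0.19 (1.79-fold, limma adjusted p = 0.03). The coronary artery call was lost in 5 of 21 alternatives and the descending aorta call in 7. Those 7 included the lymphocyte covariate and the fit without 3 of the arrays that carried other tissue. Actn1, alpha-actinin 1, had 7.28, 7.69 and 7.89 in ascending aorta, 5.44, 5.79 and 4.73 in coronary artery, 6.52, 6.62 and 6.29 in descending aorta, and 8.45, 5.87 and 6.54 in superior mesenteric artery. It was higher in ascending aorta than in coronary artery by 2.30 ± 0.51 (4.92-fold, limma adjusted p = 0.0327), a call lost in 9 of 21 alternatives.

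Both of the other called adhesion genes were higher in coronary artery. Sorbs2, an actin-associated adaptor also present at cardiac Z-discs, had 4.01, 5.79 and 5.71 in ascending aorta, 7.05, 6.74 and 7.04 in coronary artery, 4.55, 4.54 and 4.79 in descending aorta, and 6, 4.49 and 5.29 in superior mesenteric artery. Coronary artery was above the other 9, and higher than descending aorta by 2.32 ± 0.44 (4.99-fold, limma adjusted p = 0.011). Nexn, nexilin, an actin-binding protein of Z-discs and adhesions, had 4.86, 6.87 and 7.07 in ascending aorta, 8.57, 8.29 and 8.27 in coronary artery, 6.28, 6.06 and 5.78 in descending aorta, and 7.16, 4.85 and 4.89 in superior mesenteric artery. Coronary artery was above the other 9, and higher than superior mesenteric artery by 2.74 ± 0.62 (6.69-fold, limma adjusted p = 0.0295). The other 8, Vcl, Flna, Synpo2, Pgm5, Pdlim3, Pdlim7, Csrp1 and Fhl1, were not called. Of these, filamin A, Flna, came nearest, at 8.31 ± 0.72 in ascending aorta and 6.03 ± 0.31 in coronary artery (SD, n = 3 each, limma adjusted p = 0.0669).

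Alpha-sarcoglycan was the member that held in every alternative tried. Sgca, a dystrophin complex subunit of striated muscle, had 3.25, 4.2 and 4.05 in ascending aorta, 5.54, 6.17 and 6.38 in coronary artery, 3.98, 3.5 and 3.59 in descending aorta, and 4.32, 3.51 and 2.95 in superior mesenteric artery. Coronary artery lay above all 9 others. Ascending aorta differed from coronary artery by -2.20 ± 0.36 (4.58-fold, limma adjusted p = 0.00441), and coronary artery was higher than descending aorta by 2.34 ± 0.36 (5.07-fold, limma adjusted p = 0.00243) and than superior mesenteric artery by 2.44 ± 0.36 (5.42-fold, limma adjusted p = 0.0017). It passed in 21 of 21 alternatives in each of these comparisons. The other membrane genes, Cav1, Sgcd, Sspn and Aoc3, were not called in any comparison.

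The 3 signalling members and the transcription factors passed in no comparison. Hspb6, a small heat shock protein of heart and smooth muscle, averaged 7.41 ± 1.6 in ascending aorta, 9.87 ± 0.26 in coronary artery, 6.97 ± 0.15 in descending aorta and 7.26 ± 1.9 in superior mesenteric artery (SD, n = 3 each). It was not called (limma adjusted p = 0.104 against descending aorta). Hspb1, a related heat shock protein, and Dmpk, the myotonic dystrophy kinase, were not called either. Hspb1 averaged 7.16, 7.99, 7.81 and 8.08 in the ascending aorta, the coronary artery, the descending aorta and the superior mesenteric artery, and Dmpk 6.6, 6.66, 6.51 and 6.88 in that order. Myocd averaged 5.67 ± 1.2, 5.79 ± 0.23, 5.08 ± 0.36 and 5.16 ± 2 in the same order of vessels (SD, n = 3 each). Myocd had limma adjusted p of 0.962 for ascending aorta against coronary artery, 0.842 for ascending against descending aorta and 0.981 for descending aorta against superior mesenteric artery. With that spread these values cannot show that the vessels were alike. Srf averaged 5.63 ± 0.18, 5.61 ± 0.23, 5.05 ± 0.16 and 5.68 ± 0.47 in the same order of vessels (SD, n = 3 each), and no pair passed. Its descending aorta arrays, at 5.12, 5.17 and 4.87, lay below those of every other vessel without overlap.

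Beside the calls higher in coronary artery stand the cardiomyocyte values given above: each of the 15 cardiomyocyte genes was lower in ascending aorta than it was in coronary artery, and higher in coronary artery than in descending aorta, and 14 of 15 were higher in coronary artery than in superior mesenteric artery. Desmin, alpha-sarcoglycan, Ppp1r12b, Sorbs2 and Nexn are also heart muscle genes. The part of this tissue in their values, and in the lower contractile genes of the same arrays, was not tested. The cardiomyocyte list averaged 5, 4.35 and 4.85 in superior mesenteric artery, where its genes differed. Replicate 1, which had the highest Actg2 and Des, had Tnnt2 at 10.34, Pln at 9.89 and Actc1 at 9.39, while Myl2 was at 3.37 and Myh6 at 2.79. Descending aorta replicate 1 had a list mean of 5.7, with Myl7 at 9.24. The part of these transcripts was not tested either.

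The balance between the actins set the superior mesenteric artery arrays apart from the rest. Actg2 minus Acta2, a ratio chosen after the values were seen, was -3.89, -3.79 and -3.43 in ascending aorta, -2.23, -2.69 and -2.04 in coronary artery, -3.59, -3.45 and -3.40 in descending aorta, and -0.84, -0.89 and -1.27 in superior mesenteric artery. The superior mesenteric artery arrays lay above all others although their Acta2 levels ranged over 8.72 to 11.6, and coronary artery lay between them and both aortic segments. In coronary artery Actg2 stood at 5.17 to 5.74 and Acta2 at 7.22 to 7.97, while the upper quartile of gene means was 5.38. Whether so low a level of Actg2 raises the coronary artery ratio was not tested. An exact two-sided permutation test of 3 arrays against 3 gave p = 0.1 for 5 of the 6 pairs, the smallest it allows, and 0.3 for ascending against descending aorta (adjusted 0.12 and 0.3 over the 6).

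Members were also set relative to the mean of Acta2, Myh11, Tagln, Cnn1 and Myl9 on each array, without coronary artery, as an alternative added after the data were seen. By that measure Actg2, Lmod1, Des, Synm, Pgm5 and Pdlim3 had all 6 aortic arrays below all 3 of superior mesenteric artery, which is 6 of 36 members (16.7%) against 0.13% of all genes, and 0 of 36 lay above, against 0.125% of all genes. That background is not comparable, since the relative values of members had a median SD of 0.529 and those of all genes 1.28. The gap for Lmod1 was between -2.87 and -2.85. Limma on these values called 0 members in the 3 comparisons, where it called 0% of all genes in both directions for ascending against descending aorta, 0.00502% in each direction for ascending aorta against superior mesenteric artery, and 0.015% higher and 0% lower for descending aorta against superior mesenteric artery. It gave a difference of -2.32 ± 1.1 for Actg2 between ascending aorta and superior mesenteric artery (limma adjusted p = 0.995). The SE was also 1.1 for Lmod1, whose relative SDs were 0.073, 0.18 and 0.24 in ascending aorta, descending aorta and superior mesenteric artery. Limma shares its estimate of spread over all genes, which spread more on this scale. The 0 calls therefore cannot show that members were alike.

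**Figure D5:**
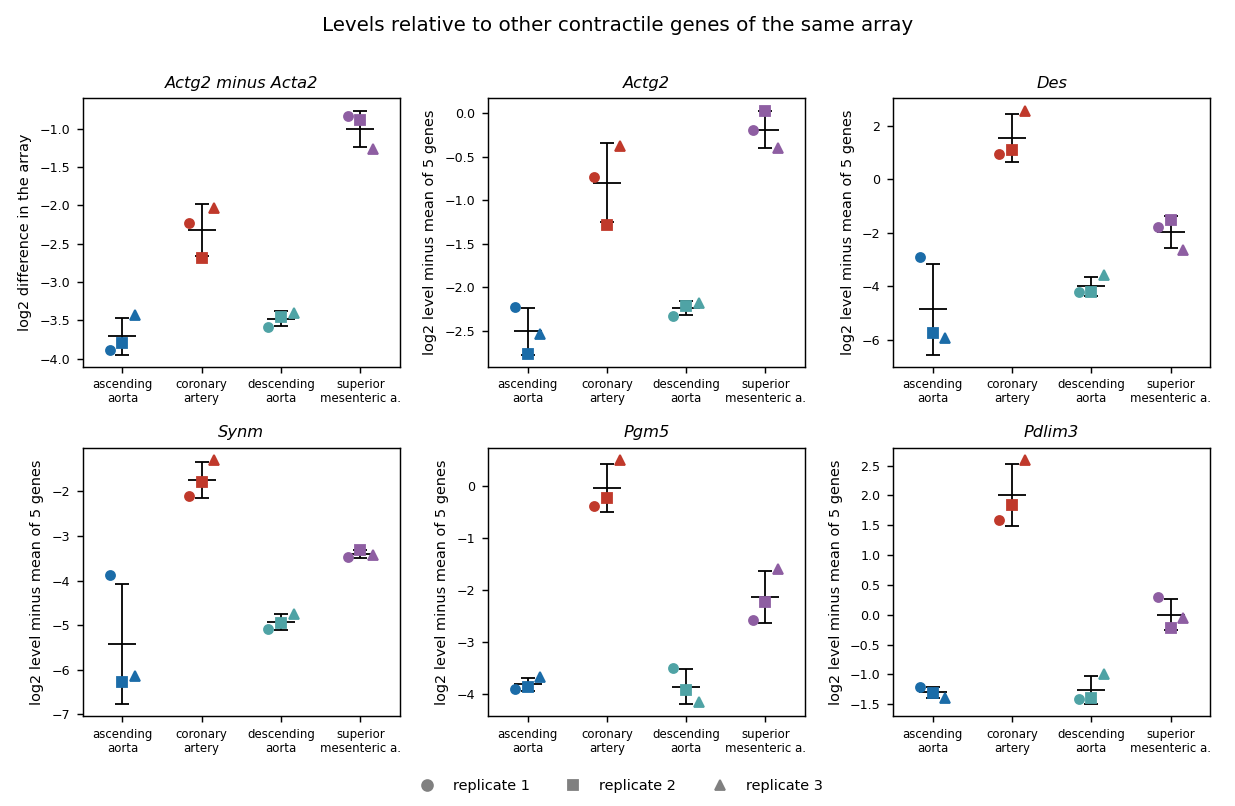
Actg2 minus Acta2, and 5 genes minus the mean of 5 contractile genes, in log2 units by vessel, with each point an array and bars the mean ± SD. For the first measure, superior mesenteric artery sits at -0.84 to -1.27 and the aortic segments at -3.40 to -3.89.

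Genes of the same pathways that are not members were read from lists chosen with earlier results of these data known. Of 15 Srf cofactor genes, 1 (Fhl2) passed against coronary artery in each of its 3 comparisons, lower in ascending aorta by a difference of -5.27 ± 0.32 (limma adjusted p = 1.35e-06). Of 25 paralogues of the actomyosin genes, 1 was higher and 5 lower in ascending aorta, set against coronary artery. The higher one was Actb, with a difference of 0.78 ± 0.17, and the lower ones were Actc1, Mylk3, Lmod2, Lmod3 and Tmod1. Of 36 adhesion and LIM genes, 1 was higher, the integrin Itga8 by 4.19 ± 0.82 (limma adjusted p = 0.0163), and 4 lower: Actn2, Ldb3, Csrp3 and Fhl2. Of 15 dystrophin and caveola genes, Sntb1 was higher and Cav3 lower. In coronary artery against descending aorta, the same 5 paralogues were higher, as were Cav3 and the adhesion and LIM genes Actn2, Ldb3, Csrp3, Fhl2 and Hspb7, and Sntb1 was lower. In coronary artery against superior mesenteric artery, Actc1, Myl12a, Mylk3, Lmod2, Lmod3, Cav3 and the same 5 adhesion and LIM genes were higher, and Actb was lower. Between descending aorta and superior mesenteric artery, Mef2a, a transcription factor of muscle on the Srf cofactor list, was lower in descending aorta by a difference of -0.72 ± 0.16 (limma adjusted p = 0.0273). In the comparisons of ascending aorta with descending aorta and with superior mesenteric artery, 0 genes of these lists passed by limma, with 0 to 3 genes of a list at an unadjusted p under 0.05 for the first comparison and 3 to 6 for the second.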

How the data were processed

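RNA of 12 arrays from 4 vessels was analysed. The authors deposited log2 values for 35556 probe sets, and the submitters' processing notes name RMA and Partek 6.6 without saying in what order. Scanner files were not used here, and no source used here gives the genome build behind the probes. Precision is limited by the 3 arrays per vessel. Probe sets with 1 symbol in the platform annotation were kept, and for the 999 genes with several the probe set with the highest mean was used, which left 19938 genes. Ppp1r12b had 7 probe sets and Hspb1 had 2. Array medians lay between 4.04 and 4.18. One mean per vessel was fitted with limma 3.58.1 in R 4.3.3 over all genes, with a moderated F test and 6 contrasts, Benjamini-Hochberg adjusted within each comparison at a threshold of 0.05. The procedure was tested on simulated data. Members, gene lists and tests were chosen with earlier results of these data known. All members are named, with every array's value for those called, and list genes were named where they passed, at most 5 a list. Promoter sequences are RefSeq's. Figures were drawn with matplotlib 3.10.9. Alternatives were renewed quantile normalization, probe-set means, median centring, no genes among the dimmest 25%, array weights, a replicate block, a lymphocyte covariate, fits of 1 pair, and leaving out arrays. An expression scale relative to 5 contractile genes was added after the data were seen. One pathway list is not reported here.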

Additional observations from a re-analysis of the deposited data

How the results depend on the processing

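No member call changed direction in the alternatives run, and most counts depended on the setting. The counts given in the report are 8 members for the F test, 5 higher and 3 lower for ascending aorta against coronary artery, 4 and 1 for coronary artery against descending aorta, 2 and 5 for coronary artery against superior mesenteric artery, and 1 lower for descending aorta against superior mesenteric artery. The same counts over all genes were 942, 120 and 373, 306 and 321, 540 and 105, and 72. With array weights the members' counts were 22, then 16 and 4, 7 and 7, 5 and 9, and 1. Those of all genes were then 1818, 402 and 485, 489 and 606, 771 and 358, and 396. With the B cell and T cell covariate the members' counts were 30, 23 and 6, 7 and 9, 3 and 24, and 6. In ascending aorta against superior mesenteric artery, 1 member was lower. Those of all genes were 1290, 408 and 443, 433 and 560, 489 and 306, and 125, with 77 lower in the last pair named. Tln1 was not among the 6 members then lower in descending aorta than in superior mesenteric artery. One fit left out 3 of the arrays with other tissue transcripts (replicate 1 of each aortic segment, replicate 3 of superior mesenteric artery). Members' counts were 14, 12 and 3, 5 and 4, 3 and 8, and 0, with 1 lower in ascending aorta against superior mesenteric artery. Those of all genes were 1169, 344 and 322, 298 and 426, 563 and 142, and 117, with 41 lower in that pair. Arrays kept also had such transcripts, as superior mesenteric artery replicate 2 with a B cell list mean of 6.66 and coronary artery with cardiomyocyte means of 10.1 to 10.3. Fits of 1 pair gave 6 and 2, 8 and 17, 3 and 3, and 1 member. No counts of all genes are given for those fits, so their counts cannot be read as particular to the members. The members lower in coronary artery than in descending aorta were 2 with a renewed quantile normalization, with median centring and with the dimmest genes left out. Those of all genes were 250, 311 and 332. Relative to 5 contractile genes, 0 members were lower in descending aorta than in superior mesenteric artery, in a fit whose shared spread left little room for a call. The cause of these changes was not tested.

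Leaving out 1 array gave 1 to 22 members for the F test, where 551 to 1825 of all genes passed. It gave 0 to 13 higher and 1 to 6 lower for ascending aorta against coronary artery (all genes 35 to 404 and 216 to 419). For coronary artery against descending aorta it gave 1 to 7 and 0 to 6 (192 to 455 and 132 to 601). Against superior mesenteric artery, coronary artery had 1 to 5 and 0 to 13 (295 to 835 and 19 to 457). Descending aorta against superior mesenteric artery had 0 to 3 lower (16 to 391). Each comparison without a count here kept 0 members. With the replicate number as a replicate block, the members' counts were 4, 3 and 3, 3 and 0, 1 and 3, and 1. Those of all genes were 908, 111 and 382, 279 and 246, 537 and 97, and 77. The correlations of same-numbered deviations over all genes ran from -0.25 to 0.09. They rest on deviations from means of 3 arrays and cannot show whether same-numbered arrays came from the same mice. The labels give only the number. Of the 21 alternatives, limma passed Sgca in 21 in each of its comparisons and Acta2 in 12 (adjusted p 0.000629 to 0.138). Calls of Cnn1 were lost in 5 against ascending aorta, 7 against descending aorta and 6 against superior mesenteric artery. The call of Nexn was lost in 7, that of Sorbs2 in 4 and that of Actg2 in 2.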
